A study of Zea mays with 18 samples.

Results

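Roots of the maize line ZmNRL1-OE, labelled as overexpression, were compared directly with roots of the line zmnrl1-m, labelled as a mutant, both supplied with 15 mM nitrate for 48 h. The comparison used 3 libraries of each line, 6 of the 18 libraries of the series, and was made across all genes without the inbred line B73 as its reference. All libraries were made from roots of 10-day-old seedlings by RNA-seq. The same 2 lines at 0.15 mM nitrate (3 libraries each) and B73 at 15 mM nitrate (3 libraries) are set beside the result. All 18 libraries shared 1 model, its gene filter and its estimate of the spread, and with the 6 libraries alone 10342 genes were called in place of 11291. The sources used here do not give the promoter or number of events behind ZmNRL1-OE, the kind of lesion in zmnrl1-m or the genetic background of either line. Nothing in the labels states whether repeats came from separate plantings. The p-values therefore reflect variation among these libraries, which may be technical.

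Roots take up nitrate through plasma membrane transporters, reduce it to nitrite and then ammonium, and build the ammonium into glutamine and glutamate. Nitrate is also a signal, and its supply changes the expression of genes for its own uptake and assimilation, for carbon metabolism and for root growth. The series title presents ZmNRL1 as a positive regulator of the nitrogen stress response, and names it as a protein with domains of unknown function. The files give genes by B73 RefGen_v4 identifiers and do not pair these with names, and 0 of the 41632 identifiers matched the RefSeq table of the NAM-5.0 assembly. ZmNRL1 itself, pathway genes and tissue markers were therefore not analysed here, and neither the line labels nor the root label could be checked against a gene. No function is given below for any gene, for the same reason.

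Total read counts lay between 31919663 and 38733842 in ZmNRL1-OE and between 21905877 and 32749868 in zmnrl1-m at high nitrate. The 10 most abundant genes held 2.2% to 2.33% of a ZmNRL1-OE library and 2.83% to 3.12% of a zmnrl1-m library. Levels are given as CPM, the reads of a gene per 1000000 library reads, with library sizes adjusted by TMM factors, which level the bulk of genes between libraries. Between 23040 and 23195 genes reached 1 CPM in the ZmNRL1-OE libraries, against 22861 to 22935 in the zmnrl1-m libraries. Across tested genes, log2 CPM correlated with r = 0.989 to 0.993 among the ZmNRL1-OE libraries, r = 0.988 to 0.990 among the zmnrl1-m libraries and r = 0.862 to 0.875 between the lines. The replicate spread was alike in both lines, with a median coefficient of variation of 8.89% over 23143 genes in ZmNRL1-OE and 9.02% over 22940 genes in zmnrl1-m.

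The 2 lines differed in a large part of the root transcriptome, in both directions. A gene is called when its Benjamini-Hochberg adjusted p from edgeR's quasi-likelihood test is under 0.05. Of 27134 genes tested, 11291 (41.6%) were called, 5694 higher in ZmNRL1-OE (21.0%) and 5597 lower (20.6%). This near balance depends on a scaling that levels the bulk of genes. It was also found with DESeq2, which called 5885 genes higher and 5782 lower. With library sizes alone 6526 genes were called higher and 4596 lower, and limma on log2(FPKM + 1) called 6506 higher and 4572 lower. Among the called genes, all 3 ZmNRL1-OE libraries stood above all 3 zmnrl1-m libraries in 5507 of the 5694 higher genes, and below them in 5391 of the 5597 lower genes. Over all genes tested, called or not, such a separation was found upwards in 7041 (25.9%) and downwards in 7110 (26.2%). The median absolute log2 fold change was 0.31 over all tested genes and 0.85 over the called genes. In bulk roots, fewer cells of a type and less RNA per cell cannot be told apart. With 1 of the 6 libraries left out, the number of called genes was 9617 to 10477.

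Most called genes differed modestly, and a smaller set differed by very much. Of the higher genes, 2979 were under 2-fold, 1304 from 2-fold to under 4-fold, 668 from 4-fold to under 16-fold and 743 at 16-fold or more (2.74%). The lower genes fell into the same classes with 3305, 959, 544 and 789 genes, the last being 2.91% of tested genes, so that 5.65% were 16-fold or more apart. Changes of at least 2-fold were thus called in 5007 genes (18.5%), 2715 higher (10.0%) and 2292 lower (8.45%), and changes of at least 4-fold in 2744 (10.1%), 1411 higher (5.20%) and 1333 lower (4.91%). On the log2(FPKM + 1) scale, which compresses low values, limma called 2743 genes with at least 2-fold, 1551 higher and 1192 lower. The class of 16-fold or more depends in part on genes without any count in one line, whose fitted fold is not a bound. Of its genes, 372 of the 743 higher had 0 counts in zmnrl1-m and 311 of the 789 lower had 0 counts in ZmNRL1-OE. With such genes set to the least fold that a floor of 3 counts per group allows, 609 higher and 714 lower genes remained at 16-fold or more. With the same bound, the median log2 fold change of the 743 higher genes was 5.33 in place of 6.92, and that of the 789 lower genes was -5.43 in place of -6.62.

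**Figure D1:**
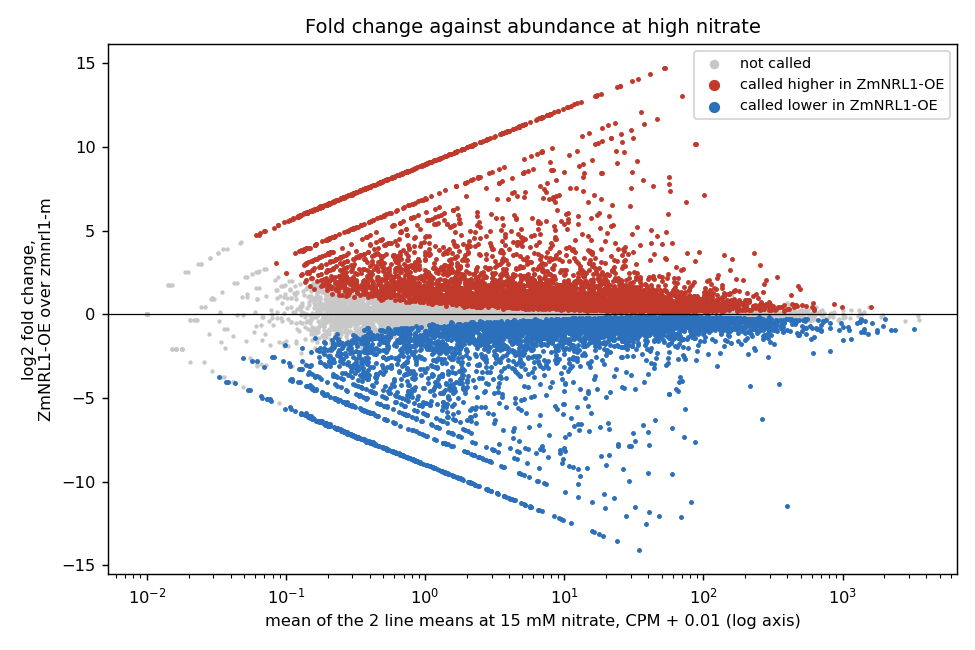
Log2 fold change of ZmNRL1-OE over zmnrl1-m at high nitrate (vertical) against mean CPM of the 2 line means plus 0.01 (horizontal, log axis), 1 point per tested gene, with 5694 genes called higher in red and 5597 called lower in blue. The slanting edges of the cloud are genes with 0 or few counts in one line, whose fitted folds rise with abundance in the other line.

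Calls were spread over all levels of expression, while large folds were concentrated in genes of low abundance. Genes were ranked by mean CPM over all 18 libraries and cut into 10 deciles of equal size. In the least abundant decile (0.0827 to 0.667 CPM) 50.6% of genes were called, and these had a median absolute log2 change of 3.71. In the most abundant decile (84.5 to 3630 CPM) 34.5% were called, with a median of 0.47. Called genes at least 4-fold apart made up 39.5% of the least abundant decile, 4.90% of the fifth and 32 of the 2714 genes of the most abundant. Some genes may have passed the filter through 1 line alone, which favours a difference. As a guide, 1334 tested genes had fewer than 10 counts summed over all 6 libraries of 1 line and 10 or more in the other. Of these, 1284 were called and 785 lay in the least abundant decile, so the shares of that decile do not stand for genes seen in both lines. Without the 1334 genes, 32.5% of the least abundant decile was called, against 38.8% of all 25800 tested genes left.

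The balance of directions shifted with abundance. In the third decile (2.12 to 4.98 CPM) 26% of genes were higher in ZmNRL1-OE and 18.1% lower, whereas in the most abundant decile 12.4% were higher and 22.1% lower. With DESeq2 the most abundant decile held 14% higher and 24.2% lower, but with library sizes alone, without TMM, it held 16.9% higher and 16.4% lower, so that the excess of lower calls there was lost. Genes called higher took 17.8% ± 0.516 of the reads in ZmNRL1-OE and 10.1% ± 0.130 in zmnrl1-m, and genes called lower took 19.3% ± 0.358 in ZmNRL1-OE and 29.3% ± 0.708 in zmnrl1-m (SD, n = 3 each). The called genes at least 4-fold apart took far less: those higher held 1.95% ± 0.149 of the reads in ZmNRL1-OE and 0.189% ± 0.0041 in zmnrl1-m, and those lower held 0.195% ± 0.00922 in ZmNRL1-OE and 1.83% ± 0.0732 in zmnrl1-m.

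**Figure D2:**
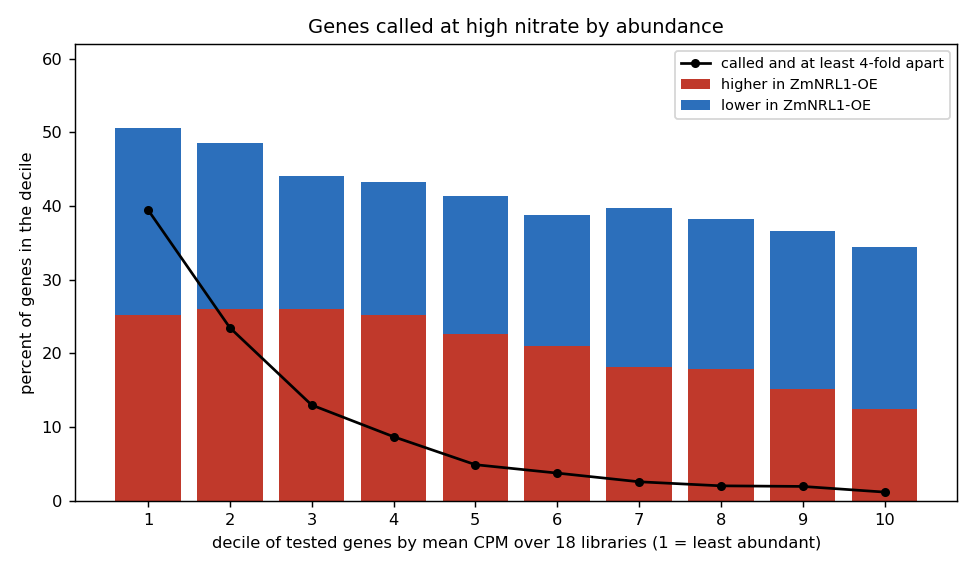
Percent of tested genes called at high nitrate in each decile of abundance (1 the least abundant), stacked as higher (red) and lower (blue) in ZmNRL1-OE, with the percent called and at least 4-fold apart as a black line. The total is 50.6% in decile 1 and 34.5% in decile 10, with 1 small rise at decile 7. The black line starts at 39.5% and declines throughout. Without the 1334 genes with fewer than 10 counts in just 1 of the lines, 32.5% of decile 1 was called. These genes were chosen by unlike counts in the lines, so leaving them out lowers that share by construction.

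Abundant transcripts seldom differed by much. Of 2421 genes with at least 100 CPM in ZmNRL1-OE or zmnrl1-m, 975 (40.3%) were called, 347 higher and 628 lower. Over all tested genes 41.6% were called. A gene enters this set through its higher line, which favours genes that differ. By mean CPM over all 18 libraries, 34.5% of the most abundant decile was called. Of the 2421 genes, 33 higher and 34 lower were at least 4-fold apart, where 10.1% of all tested genes were. At least 16-fold apart were 13 and 16, where 5.65% of all tested genes were. The most abundant of these 29 genes stood at 0.250, 0.548 and 0.0753 CPM in the ZmNRL1-OE libraries and at 753, 860 and 778 CPM in the zmnrl1-m libraries, with 0.564 CPM in B73, and was picked out after its values were seen. No ZmNRL1-OE library came near any zmnrl1-m library for this gene.

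Of the genes with at least 1 CPM in both lines and 5 CPM in the higher one, Zm00001d051609 was the furthest higher in ZmNRL1-OE and Zm00001d024514 the furthest lower. Zm00001d051609 had 168, 198 and 232 CPM in the ZmNRL1-OE libraries and 1.56, 1.42 and 1.21 CPM in the zmnrl1-m libraries. The lines did not overlap, and the gene averaged 200 ± 31.8 CPM in ZmNRL1-OE and 1.40 ± 0.175 CPM in zmnrl1-m (SD, n = 3 each). It was 141-fold higher, a log2 fold change of 7.14 ± 0.21 (SE), with an edgeR adjusted p of 1.08e-13. Zm00001d024514 had 0.945, 1.06 and 1.13 CPM in the ZmNRL1-OE libraries and 119, 110 and 122 CPM in the zmnrl1-m libraries. It was 111-fold lower, a log2 fold change of -6.80 ± 0.19 (SE), with an edgeR adjusted p of 5.35e-14. On the per-length scale of the deposited FPKM values, Zm00001d051609 averaged 55.9 ± 9.52 FPKM in ZmNRL1-OE and 0.374 ± 0.0469 FPKM in zmnrl1-m, and Zm00001d024514 averaged 0.568 ± 0.0577 FPKM in ZmNRL1-OE and 60.7 ± 3.63 FPKM in zmnrl1-m (SD, n = 3).

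Both genes differed in the same direction in the low-nitrate libraries. Zm00001d051609 had 275, 251 and 295 CPM in ZmNRL1-OE and 1.13, 1.88 and 1.91 CPM in zmnrl1-m at low nitrate. Zm00001d024514 had 1.97, 1.54 and 1.68 CPM in ZmNRL1-OE and 201, 176 and 167 CPM in zmnrl1-m. B73 at high nitrate stood at 180 ± 23.3 CPM for Zm00001d051609, within the range of ZmNRL1-OE, and at 3.79 ± 1.1 CPM for Zm00001d024514, between the lines but much nearer ZmNRL1-OE (SD, n = 3).

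A set of genes had no count at all in one line at high nitrate and was expressed at 1 CPM or more in the other. There were 196 such genes with counts in ZmNRL1-OE alone and 151 with counts in zmnrl1-m alone. Of these genes, Zm00001d008523 had the highest level in ZmNRL1-OE and Zm00001d047115 the highest in zmnrl1-m. Zm00001d008523 had 128, 94.9 and 94.8 CPM in the ZmNRL1-OE libraries and 0 in each zmnrl1-m library, at least 2821-fold higher against a floor of 3 counts over the group (edgeR adjusted p = 4.9e-08). Zm00001d047115 had 0 in each ZmNRL1-OE library and 58.0, 53.2 and 94.0 CPM in the zmnrl1-m libraries, at least 2382-fold lower in ZmNRL1-OE (edgeR adjusted p = 2.83e-10). Such floors cover counting error only.

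At low nitrate the same lines were again nearly without reads from these 2 genes. Zm00001d008523 had 39.6, 35.4 and 18.1 CPM in ZmNRL1-OE and a single read over the 3 libraries of zmnrl1-m. Zm00001d047115 had a single read over the 3 libraries of ZmNRL1-OE and 101, 79.6 and 170 CPM in zmnrl1-m. In B73 at high nitrate, Zm00001d008523 averaged 123 ± 49.0 CPM and Zm00001d047115 had 1 read over 3 libraries.

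**Figure D3:**
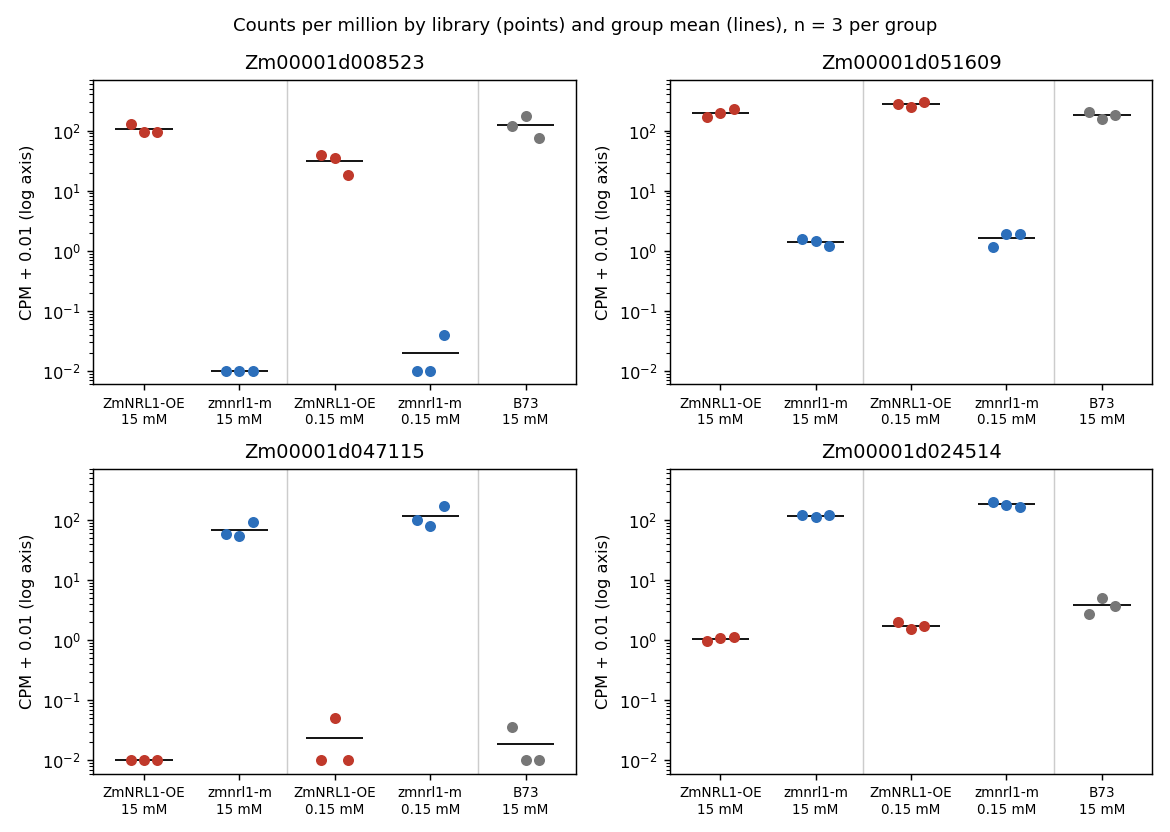
CPM plus 0.01 (log axis) of 4 genes in each library (points) with the mean of 3 libraries (lines), for ZmNRL1-OE (red) and zmnrl1-m (blue) at 15 mM and at 0.15 mM nitrate and for B73 (grey) at 15 mM. In every panel the lines differ in the same direction at both nitrate levels, and points at 0.01 are libraries with 0 counts.

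The 196 genes seen in ZmNRL1-OE alone ranged from 1.01 to 106 CPM there, with a median of 3.76 CPM, and 44 of them reached 10 CPM. The 151 genes seen in zmnrl1-m alone ranged from 1.02 to 68.4 CPM, with a median of 2.66 CPM, and 22 reached 10 CPM. Floors of 3 counts correspond to 0.0276 CPM over the ZmNRL1-OE group and 0.0375 CPM over the zmnrl1-m group, both far under the 1 CPM asked of the other line. Together the 196 genes held 0.180% ± 0.0164 of the ZmNRL1-OE reads, and the 151 genes held 0.0846% ± 0.0049 of the zmnrl1-m reads (SD, n = 3). Raising the minimum to 5 CPM left 80 and 44 genes, and allowing up to 3 counts over the silent group gave 309 and 283.

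Silence in one line carried over to the low-nitrate libraries. Of the 196 genes seen in ZmNRL1-OE alone, 148 (75.5%) also had 0 counts in all 3 zmnrl1-m libraries at low nitrate, and none of the 196 averaged above 0.0707 CPM there, while 187 reached 1 CPM in ZmNRL1-OE. Of the 151 genes seen in zmnrl1-m alone, 113 (74.8%) had 0 counts in all 3 ZmNRL1-OE libraries at low nitrate, none averaged above 0.0456 CPM, and 128 reached 1 CPM in zmnrl1-m. All 196 genes and 149 of the 151 were called in the same direction at low nitrate, where 27.3% of tested genes were called higher and 30.6% lower. In B73 at high nitrate, 97 of the 196 genes (49.5%) reached 1 CPM and 49 had 0 counts. Of the 151, 34 (22.5%) reached 1 CPM in B73 and 82 (54.3%) had 0 counts. The lengths implied by counts and FPKM had a median of 1135 bases for the 196 genes and 928 bases for the 151. The median was 1747 bases for all tested genes and 1221 bases for all called genes at least 4-fold apart. The part of length in these zero counts was not tested.

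The difference between the lines at high nitrate was then set beside the same difference at low nitrate, which came from 6 other libraries in the same model. At low nitrate 15714 genes (57.9%) were called, 7417 higher and 8297 lower in ZmNRL1-OE. The excess of lower calls turned round with library sizes alone (9198 higher and 6384 lower) and with limma on log2(FPKM + 1) (9214 and 6358). It was lost with DESeq2-style size factors in edgeR, which gave a near balance of 7851 higher and 7816 lower. Of the 5694 genes called higher at high nitrate, 4157 (73%) were also called higher at low nitrate, 178 were called lower and 1359 were not called. Of the 5597 genes called lower, 3955 (70.7%) were also called lower, 106 were called higher and 1536 were not called. The shared genes made up 56.0% of the genes called higher and 47.7% of the genes called lower at low nitrate. Agreement rose with the size of the difference. From the class under 2-fold to the class of 16-fold or more, the share called in the same direction at low nitrate was 59.3%, 79.8%, 91.9% and 99.1% for higher genes and 60%, 75.5%, 86.4% and 98.7% for lower genes.

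The genes called at high nitrate had, as sets, medians of similar size at low nitrate. The genes called higher had a median log2 fold change of 0.94 at high and 0.91 at low nitrate. The genes called lower had -0.78 and -0.65, while the median over all tested genes was 0.00 and -0.02. These sets were chosen by their call at high nitrate, which favours larger values there. Over all tested genes the median absolute log2 fold change was larger at low nitrate, 0.44 against 0.31 at high nitrate. Across the 27134 genes the log2 fold changes at high and low nitrate correlated with Pearson's r = 0.937 and Spearman's rho = 0.682. Over the 21946 genes with at least 1 CPM in both lines at high nitrate Pearson's r was 0.755. These correlations describe genes, which are not independent replicates, in libraries of the same lines that share no library.

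**Figure D4:**
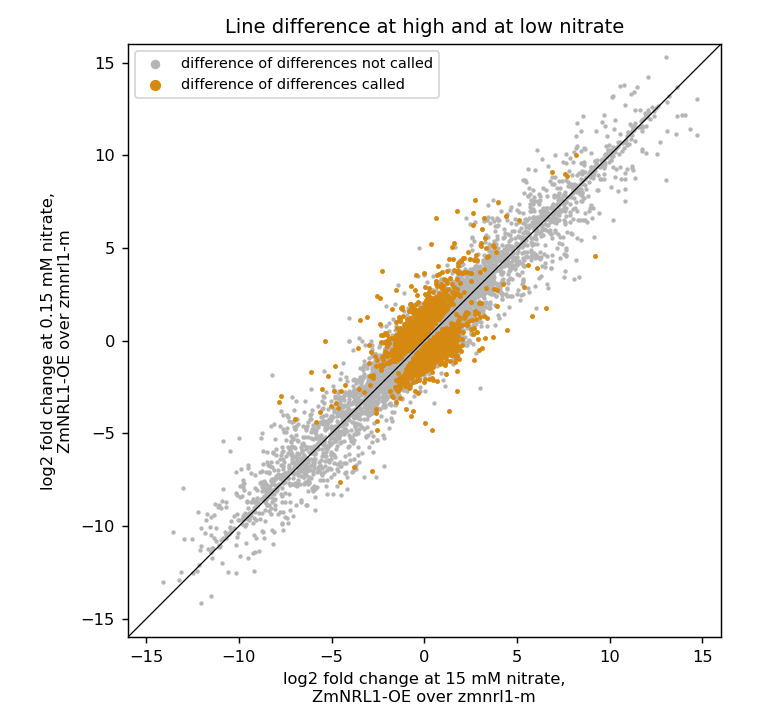
Log2 fold change of ZmNRL1-OE over zmnrl1-m at 15 mM nitrate (horizontal) and at 0.15 mM nitrate (vertical), 1 point per tested gene, with the diagonal of equal differences. Genes whose difference between the lines itself differed between nitrate levels (4463, orange) lie mostly near the centre, and genes with large differences lie along the diagonal.

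Whether the line difference depended on nitrate was tested as an interaction, the log2 fold change at high nitrate minus that at low nitrate. It was called in 4463 genes (16.4%), 2631 with a higher value at high nitrate (9.70%) and 1832 with a lower one (6.75%). Of the 4463 genes, 2551 (57.2%) had fitted differences of opposite sign at the 2 nitrate levels. In 1446 (32.4%) both had the same sign with the larger difference at low nitrate, and in 466 (10.4%) with the larger one at high nitrate. Such genes were chosen for unequal differences, and this choice itself makes opposite signs more frequent. All 284 genes called in opposite directions at the 2 nitrate levels were among the 4463, and just 11 of the 284 were at least 2-fold apart at both. Few genes that differed by much were called for the interaction, with 14 of 743 among genes 16-fold or more higher and 17 of 789 among genes 16-fold or more lower. Of these, 372 and 311 had 0 counts in one line at high nitrate, where the interaction is poorly measured: for Zm00001d008523 it was 3.63 with an SE of 6.65.

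This number fell or rose when single libraries were left out. It was 1685 and 2510 when ZmNRL1-OE lacked its high-nitrate replicate 1 or 3, 1777 and 2547 when zmnrl1-m lacked its high-nitrate replicate 2 or 3, 2374 and 1942 when ZmNRL1-OE lacked its low-nitrate replicate 1 or 3, and 1765 when zmnrl1-m lacked its low-nitrate replicate 3. Leaving out any other library of the 2 lines gave 3784 to 5567 genes. The split also moved with the scaling: 59.0% of the called genes had the higher value at high nitrate with TMM, against 47.1% with library sizes alone and 50.9% with DESeq2.

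Zm00001d007828 and Zm00001d018261 had the largest positive interactions among called genes with at least 5 CPM in a group. Zm00001d007828 had 4.89, 8.58 and 5.57 CPM in ZmNRL1-OE and 0.632, 0.284 and 0.560 CPM in zmnrl1-m at high nitrate, 13.1-fold higher in ZmNRL1-OE. At low nitrate it had 2.41, 0.690 and 0.622 CPM in ZmNRL1-OE and 1.27, 0.698 and 1.36 CPM in zmnrl1-m, where the lines overlapped. The interaction was 3.49 ± 0.88 on the log2 scale (SE, edgeR adjusted p = 0.0176). It was 1.81 on the log2(FPKM + 1) scale and 4.45 without low-nitrate replicate 1 of ZmNRL1-OE, and it lost its call without high-nitrate replicate 2 or low-nitrate replicate 3 of zmnrl1-m (adjusted p = 0.0551 and 0.0513, edgeR). Over all alternatives its edgeR, DESeq2 or limma adjusted p lay between 0.00104 and 0.0551.

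Zm00001d018261 was lower in ZmNRL1-OE at both nitrate levels and by more at low nitrate. It had 0.695, 0.335 and 0.452 CPM in ZmNRL1-OE and 7.62, 7.16 and 6.39 CPM in zmnrl1-m at high nitrate, and 0.0739, 0.122 and 0.0311 CPM in ZmNRL1-OE (7 reads in all) and 9.27, 8.99 and 7.11 CPM in zmnrl1-m at low nitrate. The interaction was 2.97 ± 0.56 (SE, edgeR adjusted p = 0.00655). It was 0.30 on the log2(FPKM + 1) scale and 1.12 on the log2(FPKM + 0.1) scale, still called by limma, since its levels are low against these pseudocounts.

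Zm00001d002554 and Zm00001d048658 had the largest negative interactions by the same rule. Zm00001d002554 had 0.0834, 0.0608 and 0.0251 CPM in ZmNRL1-OE (6 reads in all) and 13.3, 13.8 and 14.1 CPM in zmnrl1-m at high nitrate. At low nitrate it had 0.0246, 0.203 and 0.187 CPM in ZmNRL1-OE and 2.23, 1.12 and 0.454 CPM in zmnrl1-m, again with no overlap between the lines. The interaction was -4.57 ± 1.19 (SE, edgeR adjusted p = 0.0195), -5.24 without low-nitrate replicate 1 of zmnrl1-m and -5.21 without low-nitrate replicate 1 of ZmNRL1-OE. On the log2(FPKM + 1) scale it was -2.95. Without low-nitrate replicate 3 of ZmNRL1-OE it was -4.21 and no longer called (edgeR adjusted p = 0.0881, with a range of 1e-04 to 0.0881 over its alternatives).

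Zm00001d048658 varied widely between replicates. It had 1.31, 1 and 0.176 CPM in ZmNRL1-OE and 2.75, 5.61 and 12.6 CPM in zmnrl1-m at high nitrate, and 2.51, 1.06 and 0.497 CPM in ZmNRL1-OE and 0.534, 0.729 and 0.484 CPM in zmnrl1-m at low nitrate. The lines did not overlap at high nitrate and overlapped at low nitrate. The interaction was -4.33 ± 1.24 (SE, edgeR adjusted p = 0.0292) and lost its call in 6 of 21 alternatives (adjusted p from 0.0151 to 0.108 over all). On the log2(FPKM + 1) scale it was -1.76 and still called by limma. The call was lost without high-nitrate replicate 1 or 3 of ZmNRL1-OE (-4.86 and -3.86) or high-nitrate replicate 2 or 3 of zmnrl1-m (-4.46 and -3.60). It was also lost without low-nitrate replicate 1 of ZmNRL1-OE (-3.48) or low-nitrate replicate 3 of zmnrl1-m (-4.21).

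Genes at least 4-fold apart were unevenly spread along the count table. The rows of the table were kept in deposited order, in which the identifier number rises in 41581 of 41631 steps from row to row. The tested genes were cut in that order into 271 stretches of 100 genes. The share of genes called and at least 4-fold apart had a median of 10.0% per stretch, against 10.1% over all tested genes, and ranged from 0% to 26%. In 27 stretches it was at most 3% and in 20 stretches at least 20%. The share of all calls, of any size, ranged from 16% to 68%.

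At low nitrate 10.8% of tested genes were called and at least 4-fold apart. In the 27 stretches with at most 3% at high nitrate, the share at low nitrate was 1% to 8%, with a mean of 4.15%, and in the 20 stretches with at least 20% it was 16% to 27%, with a mean of 21.1%. Over all 271 stretches the shares at high and low nitrate correlated with r = 0.937, and the share in a stretch correlated with that in the next with r = 0.432. Both are descriptions. The first compares the same genes and lines in libraries that are not shared, and the second compares different genes in the same libraries. The 27 sparse stretches had a median of 15.4 CPM per gene and the 20 dense stretches 10.9 CPM, against 14.7 CPM over all stretches. Among genes of the 5 more abundant deciles, 10 of 1378 (0.726%) in the sparse stretches and 49 of 881 (5.56%) in the dense stretches were called and at least 4-fold apart at low nitrate, against 2.74% over all stretches. Some sparse stretches followed one another, but the 27 fell into 20 runs, most of them a single stretch. From Zm00001d002043 to Zm00001d003415, 8 successive stretches had shares of 2%, 3%, 3%, 6%, 5%, 3%, 3% and 3%. Those with 6% and 5% were above the limit of 3% and split this block. The pair from Zm00001d011687 to Zm00001d012020 had 0% each. The densest stretch, with 26%, ran from Zm00001d048628 to Zm00001d048829 and included Zm00001d048658.

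**Figure D5:**
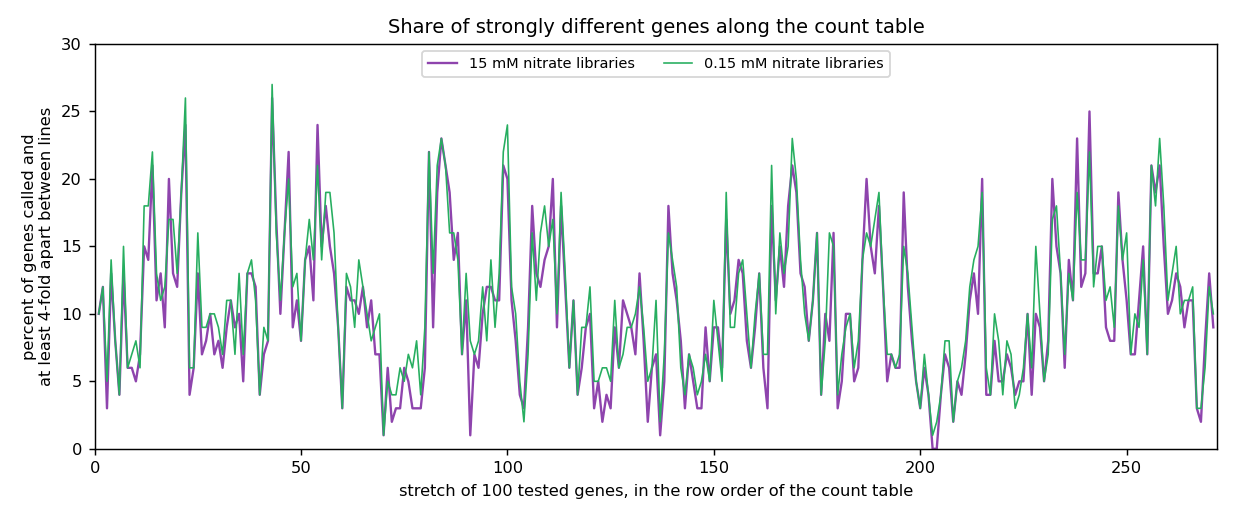
Percent of genes called and at least 4-fold apart between ZmNRL1-OE and zmnrl1-m in each of 271 stretches of 100 tested genes, in the row order of the count table, for the 15 mM (purple) and 0.15 mM (green) nitrate libraries. Both lines of the plot rise and fall together between 0% and 27%.

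Neighbouring genes shared a direction more often than the overall frequency of calls. In 16095 pairs of tested genes with consecutive identifier numbers, 770 first genes were called at least 4-fold higher in ZmNRL1-OE. The next gene was also at least 4-fold higher in 103 of these (13.4%, against 5.20% of all tested genes) and at least 4-fold lower in 43 (5.58%, against 4.91%). Of 666 first genes at least 4-fold lower, the next gene was also at least 4-fold lower in 87 (13.1%, against 4.91%) and at least 4-fold higher in 40 (6.01%, against 5.20%). Within the 16095 pairs, the 770 and 666 first genes are smaller shares than the 5.20% and 4.91% of all tested genes. Against the shares within the pairs, a next gene of the opposite direction was thus more frequent as well. Reads that match several near-identical neighbouring copies can be split between them by the counting, and their part here was not tested. For calls of any size, 21.0% of all tested genes were higher and 20.6% lower. The longest run of consecutive identifiers so called in one direction held 6 genes lower in ZmNRL1-OE, and 2 runs of 5 genes were higher. Of the 6 genes, 5 were also called lower at low nitrate. With calls of at least 2-fold, the longest run held 4 genes in each direction.

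The mean of B73 at high nitrate was set beside the 2 line means. Called genes were chosen for a wide gap between the lines, and this choice alone places any other mean between them more often than over all tested genes. For genes higher in ZmNRL1-OE, the B73 mean was above both lines in 1660 (29.2%), between them in 3181 (55.9%) and below both in 853 (15.0%). For genes lower in ZmNRL1-OE, it was above both in 847 (15.1%), between in 3089 (55.2%) and below both in 1661 (29.7%). Over all tested genes B73 lay between the lines in 36.0%, above both in 32.7% and below both in 31.4%. On the log2(CPM + 0.05) scale B73 was nearer to ZmNRL1-OE for 64.3% of genes called higher, 63.3% of genes called lower and 58.8% of all tested genes.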

How the data were processed

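The authors deposited unnormalised integer counts for each gene, and an FPKM table in which the authors had divided by gene length and depth. The genome build was B73 RefGen_v4, and featureCounts 2.0.1, HISAT2 2.2.1, Trim Galore 1.18 and bcl2fastq 2.19.1 are named, per the submitters' processing notes, without order, strand or multi-mapping settings. Reads of near-identical, overlapping or antisense genes are therefore uncertain. FPKM was 0 wherever counts were 0, and in 19280 genes with over 50 counts in every library the implied length varied by at most 0.0393%. These lengths are approximate.

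All 18 libraries entered one edgeR 4.0.16 fit in R 4.3.3 (6 group means, 12 residual degrees of freedom, TMM, filterByExpr with minimum count 10), which kept 27134 genes with 99.97% of the counts. SE is the size of a log2 fold change over the square root of F. DESeq2 1.42.0 and limma 3.58.1 were alternatives. Named genes: by identifier, in each direction 1 gene with 0 counts in the other line (highest CPM) and 1 with at least 1 CPM in both lines and 5 CPM in the higher (largest fold, no overlap), and 2 per direction for the interaction, with at least 5 CPM in a group. Comparison, rules and settings were chosen with earlier results of these data known; the lists of symbols could not be used. Within each line, every pair of libraries differed well beyond counting noise (chi-square over degrees of freedom 7.80 to 23.7, genes with 20 or more counts), and none was taken as a duplicate.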

Additional observations from a re-analysis of the deposited data

Results flagged for a closer look

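The difference between the lines itself differed between high and low nitrate, by the test of the interaction, in 4463 genes in all. In 2551 of them (57.2%) the fitted differences had opposite signs, which choosing by the interaction makes more frequent. The number of genes called fell to 1685 without high-nitrate replicate 1 of ZmNRL1-OE and rose to 5567 without its low-nitrate replicate 2. The interaction was 3.49 for Zm00001d007828, 2.97 for Zm00001d018261, -4.57 for Zm00001d002554 and -4.33 for Zm00001d048658 on the log2 scale, each the log2 fold change of ZmNRL1-OE over zmnrl1-m at high nitrate minus that at low nitrate. The call of Zm00001d018261 held in all 21 alternatives run, and the calls of the other genes were lost in 2, 1 and 6 of 21 in the order given.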

How the results depend on the processing

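At high nitrate the total of called genes stayed within 1.5 times and the calls of Zm00001d051609, Zm00001d024514, Zm00001d008523 and Zm00001d047115 held in every alternative run. With 1 library left out, the called genes numbered 9617 to 10477 (4996 to 5479 higher, 4590 to 5176 lower), those at least 2-fold apart 4869 to 5055 (2623 to 2796 and 2215 to 2413), and those with 0 counts in a line 192 to 229 in ZmNRL1-OE alone and 146 to 184 in zmnrl1-m alone. B73 lay between the lines in 5433 to 5753 called genes (6270 with all libraries), and pairs of consecutive identifiers at least 2-fold apart in one direction numbered 433 to 468 (453). At low nitrate the calls numbered 13850 to 15491 (6464 to 7697 higher, 6842 to 7835 lower). The interaction counted 1685 to 5567 genes (944 to 3092 and 709 to 2704), and DESeq2 called 6007, 3056 with a higher and 2951 with a lower value at high nitrate. On log2(FPKM + 1), which shrinks low genes, 2743 genes were at least 2-fold apart (1551 higher, 1192 lower) with 187 such pairs, and a minimum count of 50 gave 256 pairs from fewer genes tested. A minimum of 5 CPM left 80 and 44 genes with 0 counts in a line, and allowing 3 counts gave 309 and 283.

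The replicate numbers gave little sign of pairing: deviations of same-numbered libraries of the 2 lines at high nitrate correlated with r = 0.118, -0.0456 and -0.0826. With 3 libraries per group, these values cannot settle whether libraries shared a planting or batch. With the replicate number as a block, 10810 genes were called at high nitrate, 15289 at low nitrate and 3525 for the interaction, each within 1.5 times. In stretches of 50 or 200 genes, chosen after seeing the data, the highest share at least 4-fold apart was 36.0% and 21.5%, and at 2-fold it was 41.0%. Depth limits statements at low levels, where 3 counts over a group correspond to 0.0276 CPM in ZmNRL1-OE and 0.0375 CPM in zmnrl1-m.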
